A study of Mus musculus with 4 samples.

Results

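Lactotrophs that carried transcripts of Npas4 were described in single-cell RNA sequencing of mouse pituitary. Members were barcodes with at least 1000 unique molecular identifiers (UMIs, each standing for 1 captured transcript) and at most 10% mitochondrial UMIs. Prl had to give at least 8% of the UMIs, Gh less than 10%, Pomc and Cga less than 1% each, and Npas4 at least 1 UMI. Of 40406 barcodes, 37423 passed the depth and mitochondrial filter, 6733 of these met the hormone rule, and 4506 carried Npas4. The members were thus chosen by their own Npas4, Prl, Gh, Pomc, Cga and mitochondrial UMIs. The remaining 2227 Prl-defined barcodes without an Npas4 UMI were the comparison cells. The series holds 4 libraries from male mice that were 4 weeks old at the start and were fed for 12 weeks. High-fat food (HFD) was given for 2 libraries and normal food (ND) for the other 2. No genotype or strain is given. Each library pooled 3 pituitaries, so single animals cannot be told apart. The glands were minced and digested with enzyme at 37 °C for 1 h before capture.

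All libraries were deposited as 1 count matrix with 346690898 UMIs in all, in which each barcode ends in a suffix from 1 to 4. Nothing ties a suffix to a library or a diet, so HFD and ND were not compared, all barcodes count as 1 pooled sample, and no test was made. Suffixes are given side by side as a description and are not replicates of a group. Intervals are at 95% and reflect the error of counting alone. The labels of every library also name a gonadotroph cell type and the cell line Lbt2, but 16728 barcodes met a Gh rule, 3257 a Pomc rule and 1168 a Cga rule, so the main hormone classes of the gland were present. Barcode sequences that occurred under more than 1 suffix numbered 313. They included 44 members, 6 of which shared the sequence with another member.

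Lactotrophs are the prolactin-secreting cells of the anterior pituitary, where dopamine from the hypothalamus holds back secretion through the receptor Drd2. NPAS4 is a transcription factor of the bHLH-PAS family, known from neurons, where calcium entry after electrical activity switches its gene on within minutes and where it pairs with ARNT proteins. It belongs to the immediate early genes, a set with Fos, Egr and Nr4a members that cells transcribe rapidly, without new protein synthesis, after many stimuli. Depolarisation, cAMP and growth factors induce such genes in intact tissue, and warm enzymatic dissociation is also known to induce many of them.

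Cyclic AMP and calcium reach several of these genes through the cAMP response element (CRE), bound by CREB. Its core TGACG and the reverse complement CGTCA are in capitals in the windows below, which hold the bases just before the RefSeq start of 6 genes that were higher in the members. They were chosen after the values were seen, as the 4 immediate early genes with the highest folds that have a window, Nr4a2, Egr4, Nr4a1 and Klf4, and as the abundant Fos and Junb. Each is written 5′ to 3′ on the gene's own strand, 250 bases long, from RefSeq on GRCm38.p6. None of the 6 windows overlaps an exon in GENCODE vM21. Arc has no entry.
Nr4a2, chr2:57124004-57124253, minus strand: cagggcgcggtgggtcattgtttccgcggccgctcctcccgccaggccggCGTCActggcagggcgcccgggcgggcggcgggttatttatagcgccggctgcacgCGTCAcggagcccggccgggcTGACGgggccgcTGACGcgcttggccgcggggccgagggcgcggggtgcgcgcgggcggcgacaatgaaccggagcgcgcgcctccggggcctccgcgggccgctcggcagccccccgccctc
Egr4, chr6:85513590-85513839, minus strand: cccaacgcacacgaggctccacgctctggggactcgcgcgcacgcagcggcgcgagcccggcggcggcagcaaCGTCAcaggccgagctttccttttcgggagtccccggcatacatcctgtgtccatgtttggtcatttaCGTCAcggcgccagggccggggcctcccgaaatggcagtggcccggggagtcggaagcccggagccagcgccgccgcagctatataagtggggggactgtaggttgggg
Nr4a1, chr15:101266596-101266845, plus strand: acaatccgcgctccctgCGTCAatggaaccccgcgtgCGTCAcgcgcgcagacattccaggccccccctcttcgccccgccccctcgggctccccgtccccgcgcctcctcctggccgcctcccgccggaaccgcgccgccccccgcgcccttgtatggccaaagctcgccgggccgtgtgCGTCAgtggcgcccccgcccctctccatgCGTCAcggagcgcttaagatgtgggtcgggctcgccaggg
Klf4, chr4:55532476-55532725, minus strand: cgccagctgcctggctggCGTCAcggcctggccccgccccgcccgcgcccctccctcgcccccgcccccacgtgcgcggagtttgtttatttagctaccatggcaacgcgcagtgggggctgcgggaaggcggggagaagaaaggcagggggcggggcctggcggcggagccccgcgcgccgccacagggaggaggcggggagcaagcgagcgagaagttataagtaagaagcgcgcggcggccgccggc
Fos, chr12:85473640-85473889, plus strand: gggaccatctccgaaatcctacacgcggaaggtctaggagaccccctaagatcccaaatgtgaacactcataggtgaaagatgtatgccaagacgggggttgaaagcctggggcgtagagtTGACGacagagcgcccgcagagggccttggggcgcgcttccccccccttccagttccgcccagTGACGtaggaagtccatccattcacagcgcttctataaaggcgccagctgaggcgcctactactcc
Junb, chr8:84978749-84978998, minus strand: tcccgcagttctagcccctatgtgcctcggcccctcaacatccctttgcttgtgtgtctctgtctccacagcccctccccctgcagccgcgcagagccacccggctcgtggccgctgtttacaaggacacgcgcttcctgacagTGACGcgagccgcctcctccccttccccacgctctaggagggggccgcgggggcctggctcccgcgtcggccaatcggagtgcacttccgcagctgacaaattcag

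Nr4a2 and Nr4a1 have 4 CRE cores each in these windows, Egr4 and Fos 2 each, and Klf4 and Junb 1 each. For Npas4 itself only the stretch around its 2 CRE cores is shown, because GENCODE vM21 places an exon over the window.
Npas4, chr19:4990131-4990155, minus strand: ttcgaCGTCAcgggaTGACGtcgga
Among the immediate early genes called higher below, 25 of 38 windows held a CRE core (65.8%), counting several starts of a gene separately, and 27 of these 36 genes had a window. Over all 32851 windows of the RefSeq table the share was 17.8%, and over the 11577 windows of genes tested it was 27.6%. The palindrome TGACGTCA stood in 2 of the 38 windows (5.26%), against 2.75% of the windows of genes tested. TCGTG or CACGA, the core bound by NPAS4 dimers, stood in 8 of 38 (21.1%), against 18.3%. The AP-1 site TGANTCA stood in 1 of 38 (2.63%), against 4.02%. The CArG box, the site of serum response factor, stood in 5 of 38 (13.2%), against 1.14%, a larger ratio than for the CRE core. Over the windows of all genes called higher, 43.1% of 262 held a CRE core and 3.05% a CArG box. These matches are letters in a window and not measured binding.

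An Npas4 UMI was found in 66.9% of the Prl-defined cells (95% exact binomial interval 65.8 to 68.0). The share was 58.0% in suffix 1 (990 of 1708 cells, 55.6 to 60.3), 72.3% in suffix 2 (922 of 1275, 69.8 to 74.8), 71.2% in suffix 3 (1434 of 2015, 69.1 to 73.1) and 66.9% in suffix 4 (1160 of 1735, 64.6 to 69.1). Suffix 1 lay below the other suffixes and the intervals of suffixes 2 and 3 overlapped. Npas4 stood at 636 CPM (UMIs of a gene scaled to 1000000 UMIs of its cells) over all Prl-defined cells, with 501, 748, 653 and 660 CPM in suffixes 1 to 4. Members held a median of 5 Npas4 UMIs and at most 63. Of the members, 915 (20.3%) had a single UMI and 1252 (27.8%) had 10 or more.

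**Figure D1:**
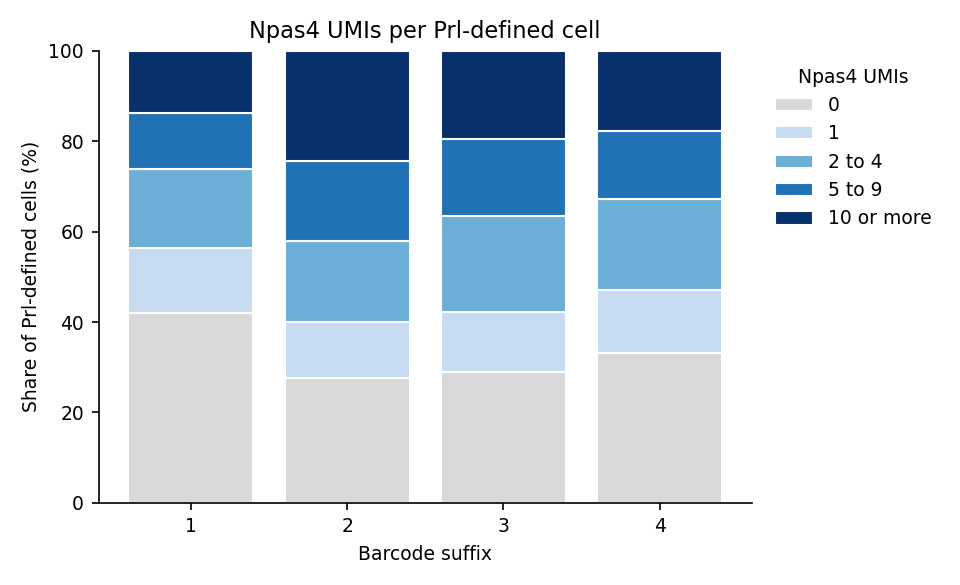
Share of Prl-defined cells (vertical axis, percent) by number of Npas4 UMIs per cell (colours) for each barcode suffix (horizontal axis). Cells without Npas4 made up 42.0% in suffix 1 and 27.7% in suffix 2, and cells with 10 or more UMIs 13.8% and 24.5%.

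Whether a cell counted as a member depended on its depth. The share with Npas4 was 39.0% in Prl-defined cells of 1000 to 3000 UMIs, 60.2% at 5000 to 7000 UMIs and 91.4% at 20000 UMIs or more. The Npas4 level followed that order only in part. It was 610 CPM at 1000 to 3000 UMIs and 437 CPM at 3000 to 5000 UMIs (share 44.8%). From there it rose with the share, over 549 and 702 CPM, to 729 CPM at 9000 to 12000 UMIs (79.7%). In deeper cells it was 577 and then 498 CPM. Thinned to 1000 UMIs per cell, 33.5% of Prl-defined cells kept an Npas4 UMI. Members had a median of 8044 UMIs and the Npas4-free cells 6389. The Prl threshold had no step beside it: 66.4% of the 259 cells with 7 to 8% Prl UMIs carried Npas4, as did 70.5% of the 234 cells with 8 to 9%.

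Other cells of the gland carried Npas4 as well. Before thinning, Pomc-defined cells stood at 723 CPM and 69.1% of cells (median depth 7717 UMIs), Cga-defined cells at 298 CPM and 53.2% (11704 UMIs), and Gh-defined cells at 128 CPM and 37.9% (9985 UMIs). Cells with both Gh and Prl stood at 362 CPM, and 4078 barcodes with low hormone shares and no marker class at 663 CPM. Cells with T or NK markers, which are not expected to transcribe Npas4, stood at 55.7 CPM and 7.06% of 326 cells. Their median depth was 2062.5 UMIs against 7540 in the Prl-defined cells. They were the lowest class: endothelial and fibroblast marker cells each stood at 95.0 CPM, stem or folliculostellate at 110 and macrophage marker cells at 116 CPM. Thinned to 1000 UMIs the shares were 36.7% in Pomc-defined, 33.5% in Prl-defined, 18.9% in Cga-defined, 10.1% in Gh-defined and 3.38% in T or NK marker cells. They were 30.7% in the low-hormone barcodes, 24.9% in cells with both hormones, and 3.16% to 4.72% in the other marker classes. The Prl-defined share thus lay far above that of the blood cells, and a single Npas4 UMI in a member can still come from free RNA.

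The label lactotroph was checked on markers outside the hormone rule, as CPM of all members. Drd2, the dopamine receptor, stood at 90.9 CPM in members against 5.35 in Gh-defined cells. Angpt1 stood at 260 against 13.5, Olfm1 at 340 against 54.1, Nefh, a neurofilament subunit, at 66.8 against 4.68, and Mest, an imprinted hydrolase gene, at 573 against 97.4. Esr1, the oestrogen receptor, stood at 203 against 88.6 and Pou1f1, the lineage factor of lactotrophs, somatotrophs and thyrotrophs, at 477 against 319. Prlr, the prolactin receptor, was lower in members, at 52.5 against 144. Some of these genes were closer to the members' levels in other hormone classes: Drd2 stood at 53.7 CPM in Pomc-defined cells, and Nefh at 44.1 and Esr1 at 173 CPM in Cga-defined cells. Angpt1 stood at 10.2 and 11.4 CPM in Pomc-defined and Cga-defined cells, and Mest at 138 and 159 CPM. Npas4-free Prl-defined cells had similar levels of Drd2 (85.9), Esr1 (198) and Prlr (53.3). Their levels of Angpt1 (297) and Pou1f1 (554) were higher, and those of Mest (363), Nefh (51.9) and Olfm1 (305) were lower.

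For the comparison at matched depth, each Npas4-free cell took the nearest unused member of the same suffix within 5% of its UMI total. This gave 2000 pairs (570, 321, 560 and 549 in suffixes 1 to 4), with median depths of 6748 and 6753.5 UMIs. 227 Npas4-free cells found no partner, and the members outside these pairs were left out as well. In the matched comparison, members means the 2000 paired members. Counts were summed per set and suffix, and fold means CPM in members over CPM in Npas4-free cells. A gene with at least 100 UMIs over both sets was called higher at a pooled fold of at least 1.5 with members above in every suffix, and lower in the mirror case. Npas4 chose the members (907 CPM in the paired members, by rule 0 in the others), and everything in this contrast is a description. Members differed in other ways too: a median of 2599.5 genes against 2487, 1.42% mitochondrial UMIs against 1.66%, and 19.3% Prl UMIs against 23.9%. The part of these differences in the folds was not tested.

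Of 11947 genes tested, 302 were called higher (2.53%) and 85 lower (0.711%). Members were above in all 4 suffixes for 20% of genes and below in all 4 for 6.93%. The median log2 fold of all genes was 0.06. With the 7 pituitary hormone genes left out of the library size, this median was -0.05 and the split 221 higher and 125 lower. The 36 immediate early genes called higher below were called under that scaling too. Calls of other lists that were lost under it are given beside their counts.

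**Figure D2:**
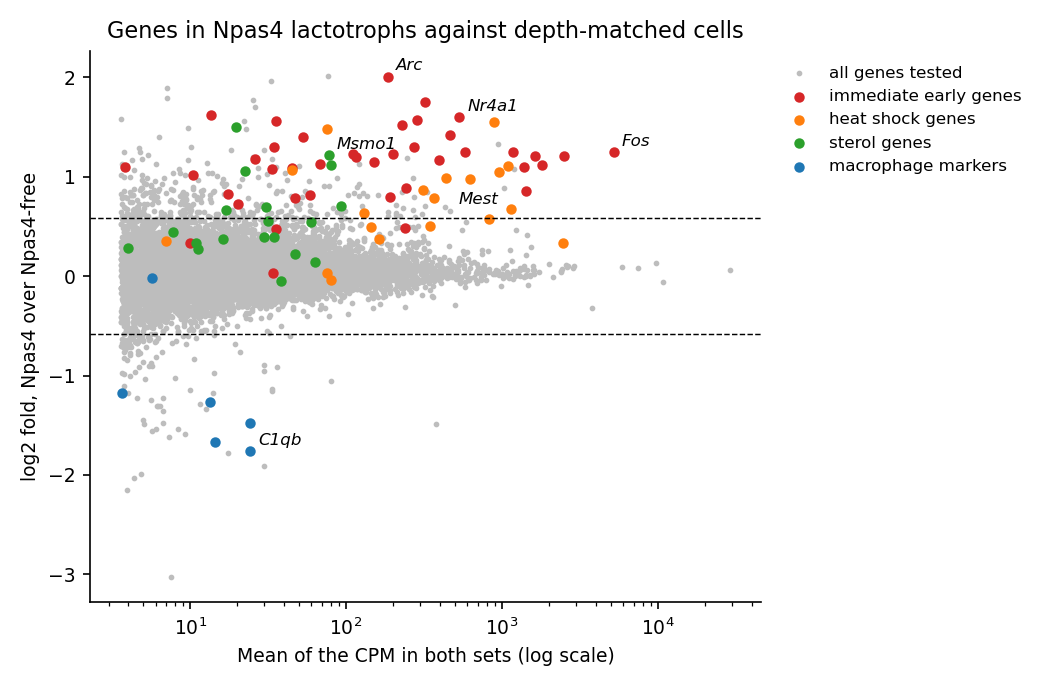
log2 fold of members over depth-matched Npas4-free cells (vertical axis) against the mean CPM of both sets (horizontal axis, log scale), 1 point per gene, with 4 gene lists in colour and dashed lines at a fold of 1.5 in either direction. Of the immediate early genes, 36 of 40 lie above the upper line, from the scarce Fosl1 to the abundant Fos, and 5 of 6 macrophage markers lie below the lower line.

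Nearly the whole immediate early gene list was higher in the members. Of 40 listed genes, 36 were called higher and none lower, against 2.53% of all genes, with a median log2 fold of 1.18. Their summed level was 28105 CPM in members and 12281 CPM in Npas4-free cells, and the suffixes did not overlap (26646 to 29453 against 11253 to 14059). The list was known from earlier results to be prominent in these data. The 4 genes not called were Btg1 (fold 1.40), Klf10 (1.39), Myc (1.26) and Ier3 (1.02).

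The AP-1 subunits were the most abundant of the list. Fos, which dimerises with Jun proteins, stood at 7727, 7324, 7258 and 6935 CPM in members of suffixes 1 to 4 and at 3197, 2845, 3282 and 2886 CPM in Npas4-free cells. The lowest member value was more than the highest value without Npas4, and the pooled fold was 2.38. Jun had a fold of 2.31 (3478 against 1505 CPM), Junb of 2.31 (2269 against 984) and Fosb of 2.15 (1896 against 883). Jund, less sharply induced in most cells, had 1.81, Fosl2 2.19 and the scarce Fosl1 2.15 (5.25 against 2.45 CPM). Most cells of both sets held Fos: 99.3% of members and 96.5% of Npas4-free cells had a UMI.

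The Nr4a genes encode orphan nuclear receptors, of which Nr4a1 (NUR77) is a known regulator of pituitary hormone genes. Nr4a1 stood at 755, 752, 887 and 793 CPM in members and at 208, 205, 346 and 279 CPM in Npas4-free cells, without overlap, at a pooled fold of 3.04 (2.92 to 3.15). It was detected in 81.2% of members and 49.0% of the others. Nr4a2 stood at 403, 315, 687 and 523 CPM in members and 93.7, 93.4, 213 and 176 CPM without Npas4, a fold of 3.37, and suffixes 3 and 4 were high in both sets. Nr4a3 had a fold of 2.96 (53.0 against 17.9 CPM).

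Arc, which encodes a synaptic capsid-like protein and is a marker of neuronal activity, had the highest fold of the list. It stood at 211, 319, 296 and 384 CPM in members and at 36.8, 78.7, 91.2 and 94.6 CPM in Npas4-free cells, a fold of 4.03 (3.76 to 4.31). Suffix 1 was low in both sets, and no member value reached down to the other set. Arc was detected in 45.6% of members and 21.0% of the others.

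The zinc finger genes split by abundance. Egr1 stood at 2477 against 1139 CPM (fold 2.17), while Egr4 at 20.6 against 6.70 CPM (3.07), Egr2 at 36.4 against 16.1 CPM (2.27) and Egr3 at 13.9 against 6.84 CPM (2.03) were scarce. Klf4, also an early response gene in many tissues, stood at 454, 440, 452 and 350 CPM against 122, 154, 179 and 122 CPM, a fold of 2.96. Klf2 had a fold of 2.87 and Klf6 of 1.85. Genes that end the response were higher as well: Zfp36, which destabilises AU-rich mRNAs, had a fold of 2.67, and the antiproliferative Btg2 2.38 (1659 against 698 CPM).

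**Figure D3:**
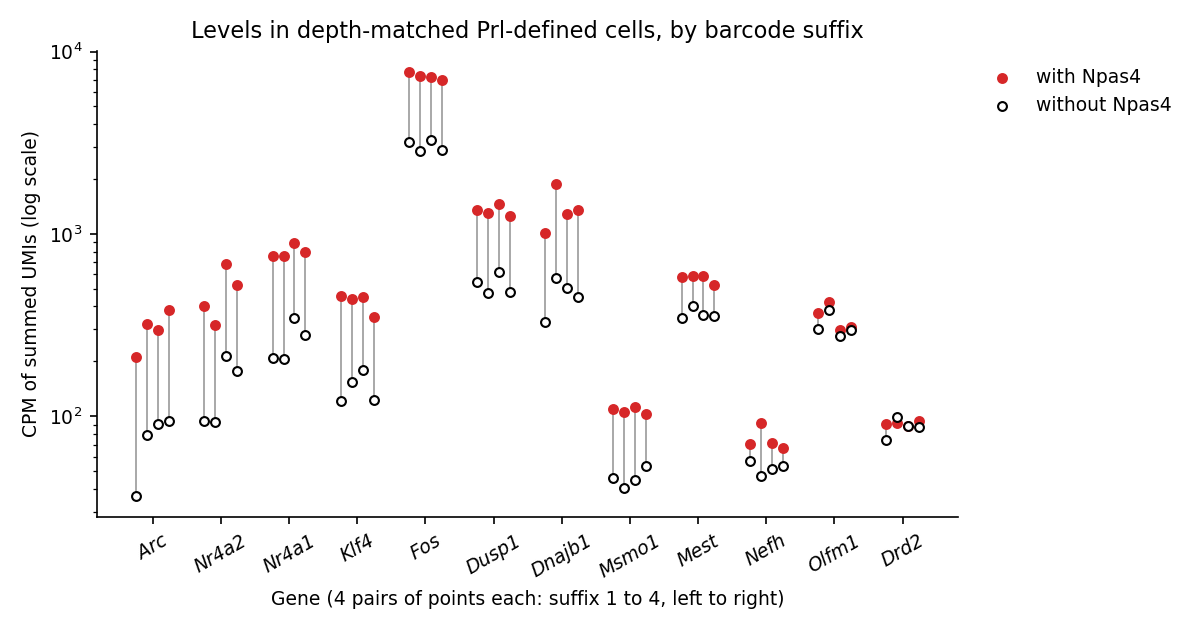
CPM of summed UMIs (vertical axis, log scale) of 12 genes in members (filled) and depth-matched Npas4-free cells (open), with the 4 suffixes of each gene from left to right and lines joining the sets of a suffix. Arc to Mest are higher in members in every suffix, whereas Drd2 is reversed in suffixes 2 and 3.

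The same held cell by cell. Members had a UMI of a median of 20 of the 40 immediate early genes (quartiles 15 and 24), and the paired cells of 13 (10 and 17). The list gave a median of 2.54% of a member's UMIs (quartiles 1.23 and 3.91) and 0.701% of a Npas4-free cell's (0.362 and 1.502). The quartile ranges therefore overlapped. The member had the higher share in 1588 of 2000 pairs (79.4%), from 78.3% to 79.8% over the suffixes.

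MAP kinase phosphatases and Sprouty-type inhibitors damp the signalling that induces early genes. Of the 14 listed, 12 were tested, 5 were called higher and none lower (2.53% over all genes), with a median log2 fold of 0.34. Dusp1, a nuclear phosphatase of p38, JNK and ERK, stood at 1353, 1300, 1451 and 1256 CPM in members and at 547, 473, 614 and 478 CPM in the others, without overlap, at a fold of 2.51. Dusp14 had a fold of 2.13, Dusp8 of 2.05, Dusp5 of 1.94 and Dusp10 of 1.91.

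Few genes of the signalling machinery upstream were higher. Of 34 tested genes of cAMP and calcium signalling to the nucleus, 2 were called higher and none lower (2.53% over all genes), with a median log2 fold of 0.06, the same as over all genes. They were Srf, the serum response factor (15.04 against 8.28 CPM, fold 1.82), and Pde10a, a cyclic nucleotide phosphodiesterase (254 against 165 CPM, 1.54). Pde10a had 1.43 and was not called under the hormone-free scaling. Prkaca, a catalytic subunit of protein kinase A, had a fold of 1.12.

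NPAS4 partners and genes known as its targets in neurons gave 5 of 10 tested genes called higher and none lower (2.53% over all genes), with a median log2 fold of 0.50. Csrnp1 had a fold of 2.64 (77.02 against 29.2 CPM) and Rgs2, which speeds the switching off of G protein signals, of 1.73 (242 against 140 CPM). Both are also on the immediate early gene list. Plk2 had 1.67, Sertad1 1.65 and Pim1 1.54, which was 1.43 and not called with hormone genes left out of the library size. Bdnf, the best known neuronal target, had a fold of 1.29 (16.6 against 12.8 CPM) and was not called. The dimer partners Arnt2 and Arnt both had folds of 1.08 (24.8 against 22.9 CPM, and 39.0 against 36.2 CPM).

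Heat shock genes, which respond to misfolded protein and are commonly raised by tissue dissociation, were also higher. Of 19 genes, 11 were called higher and none lower (2.53% over all genes), with a median log2 fold of 0.67. With hormone genes left out of the library size 9 were called, without Hsp90aa1 (1.48) and Dnajb4 (1.44). Dnajb1, a co-chaperone of HSP70, stood at 1015, 1878, 1282 and 1359 CPM in members and at 330, 573, 504 and 451 CPM in Npas4-free cells, a fold of 2.94. Suffix 2 was highest in both sets, and the sets did not overlap. Dnaja4 had a fold of 2.80, Hspb1 of 2.15 (1486 against 691 CPM), the HSP70 cofactor Bag3 of 2.10 and the inducible Hsp70 gene Hspa1a of 2.07 (1290 against 625 CPM). The constitutive Hspa8 had 1.49 and was not called. The summed level was 12757 against 7565 CPM.

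The list of sterol synthesis and uptake also held several calls. Of 19 tested, 7 were called higher and none lower (2.53% over all genes), with a median log2 fold of 0.44. With hormone genes left out of the library size 6 were called, without Fdps (1.48). Msmo1, a demethylation enzyme late in the pathway, stood at 109.8, 105, 113 and 103 CPM in members and at 45.7, 40.6, 44.95 and 53.4 CPM in the others, a fold of 2.32. The suffixes were close to each other within each set, and the sets did not overlap. Hmgcs1, which commits acetyl units to the pathway, had a fold of 2.17, Idi1 of 2.09 and Insig1, the sterol-sensing brake on SREBP, of 1.63. Sqle had 1.47 and was not called.

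In the unfolded protein response list, 2 of 23 tested genes were called higher and none lower (2.53% over all genes), with a median log2 fold of 0.03. Both encode transcription factors of the integrated stress response: Ddit3 (CHOP) with 120 against 76.2 CPM (fold 1.57) and Atf4 with 266 against 174 CPM (1.53). Under the hormone-free scaling their folds were 1.46 and 1.42, and no gene of the list was called. Canx, which holds folding glycoproteins, had a fold of 0.87, and the chaperone gene Hyou1 of 1.10.

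**Figure D4:**
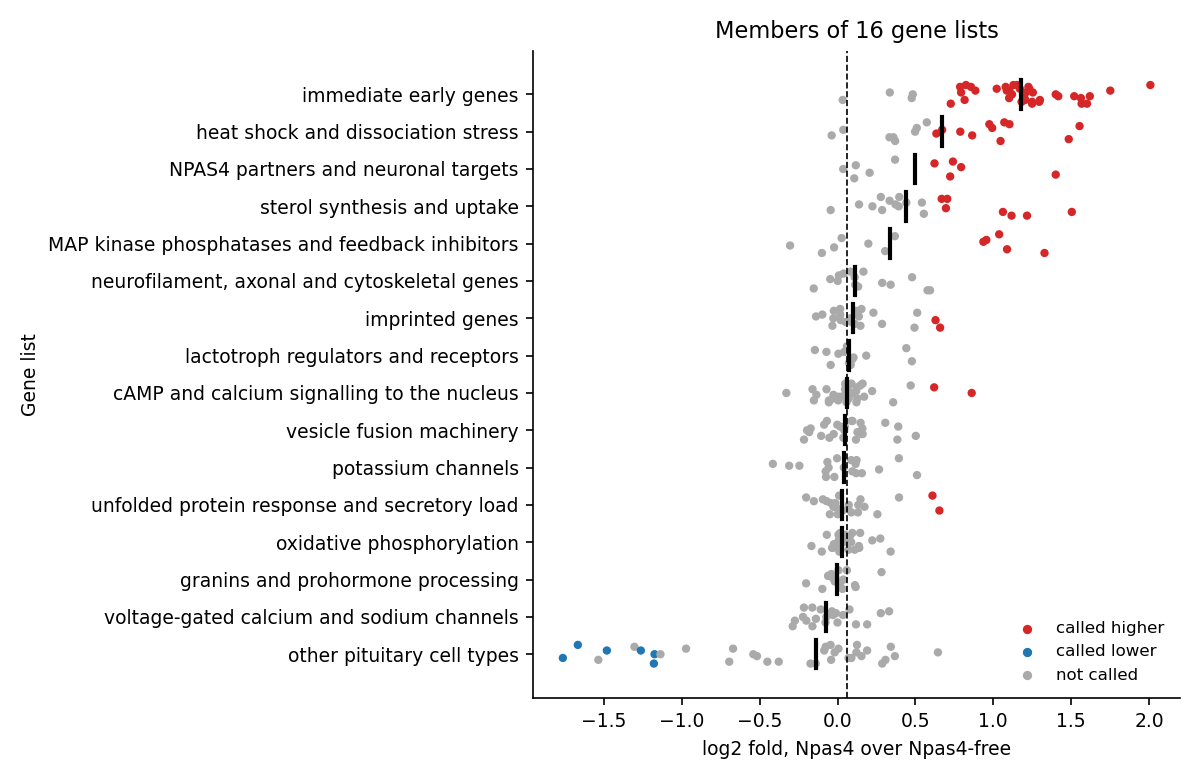
log2 fold of members over depth-matched cells (horizontal axis) for each tested gene of 16 lists (vertical axis), with black bars at list medians, the dashed line at the median of all genes tested (0.06), and colours for calls. The lists of immediate early and heat shock genes have the highest medians (1.18 and 0.67), and most other medians lie near the dashed line.

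Lactotroph regulators were not called in either direction. Of 13 tested lactotroph regulators and receptors, no gene passed, and the median log2 fold was 0.07. At 2.53% higher and 0.711% lower over all genes, a list of this size would hold few calls or none. Drd2 stood at 90.3, 91.8, 88.1 and 94.6 CPM in members and at 74.5, 99.3, 88.6 and 87.0 CPM without Npas4, with overlapping suffixes, at a fold of 1.06. Pou1f1 had a fold of 0.95, Esr1 of 1.07, Prlr of 1.00 and the peptide gene Gal, a known lactotroph growth factor, of 1.39. Prl, which the rule used, stood at 215126 CPM in members and 270079 CPM in the others, a fold of 0.80 that ranged from 0.77 to 0.82 over suffixes.

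Among markers given for these cells, Mest was called higher, at 581, 589, 589 and 527 CPM against 348, 401, 360 and 354 CPM, without overlap, at a fold of 1.58. With hormone genes left out of the library size its fold was 1.47 and it was not called. Nefh (fold 1.39) and Olfm1 (1.12) were above in every suffix but were not called. The shares of cells with a UMI were close, at 27.25% of members and 26.05% of the others for Nefh. For Olfm1 they were 78.35% and 78.2%. In the neurofilament and axonal list, none of 15 tested genes was called in either direction (2.53% higher and 0.711% lower over all genes). The median log2 fold of that list was 0.11. Tubb2a had the highest fold above in every suffix (1.49), and Ina had 1.27. Of 22 tested imprinted genes, 2 were called higher, Mest and the retrotransposon-derived Rtl1 (5.90 against 3.82 CPM, 1.55), and none lower, against 2.53% higher over all genes. Without hormone genes in the library size Rtl1 had 1.44, and no imprinted gene was called. Plagl1, the maternally imprinted zinc finger gene, had 1.41 and Peg3 0.93.

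Genes of excitability and secretion were not called, against 2.53% higher and 0.711% lower over all genes. At those shares, lists of this size would hold few calls or none. None of 21 tested calcium and sodium channel genes was called in either direction, with a median log2 fold of -0.07. Of these, 6 were below in all 4 suffixes and 1 above, against 6.93% and 20% of all genes. Cacna1d, an L-type calcium channel, was below in every suffix at a fold of 0.86, and Scn3a at 0.89. None of 19 potassium channel genes, 16 granin and prohormone-processing genes, 26 vesicle fusion genes and 32 oxidative phosphorylation genes was called in either direction, with median log2 folds of 0.04, 0.00, 0.04 and 0.03. The potassium channel gene Kcnc1 had a fold of 1.42 from low levels (14.97 against 10.5 CPM), with suffix folds from 1.06 to 2.45. Syt4, a vesicle protein whose gene is induced by depolarisation in neurons, stood at 327, 357, 359 and 323 CPM against 225, 258, 254 and 229 CPM, a fold of 1.42. The granin Chgb had 0.96.

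Several of the highest folds over all genes were transcripts of noncoding or little-studied loci. Gm26532, annotated as a long noncoding RNA, had the highest fold, 4.05 (124 against 30.5 CPM). In GENCODE vM21 it lies at chr8:84208920-84209609 on the plus strand and overlaps the Mir24-2 hairpin by 2 bases, next to Mir27a and Mir23a. 1700016P03Rik stood at 51.9, 43.6, 53.4 and 58.7 CPM in members and at 10.3, 13.0, 16.6 and 14.0 CPM without Npas4, without overlap, at a fold of 3.903 (3.32 to 4.61). It was detected in 20.5% of members and 6.80% of the others. It spans the hairpins of Mir212 and Mir132 on the same strand (chr11:75172560-75177633), a locus known as a CREB target in neurons. The mature RNAs were not measured. The 2 arms shown share the seed (bases 2 to 8, in capitals), read from RefSeq on GRCm38.p6.
mmu-miR-132-3p, chr11:75173723-75173744, plus strand: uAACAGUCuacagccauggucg
mmu-miR-212-3p, chr11:75173443-75173464, plus strand: uAACAGUCuccagucacggcca
Ovca2 overlaps 1700016P03Rik by 1692 bases on the other strand, and whether counting used strand is not given in the sources used here.

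ENSMUSG00000118364, with a fold of 3.43 (39.2 against 11.4 CPM), lies 1040 bases upstream of Npas4 on the same strand (chr19:4991357-4993113), so it is a neighbour of the gene that chose the members. Mlf1 had a fold of 3.71 and the histone gene H2bc24 3.48, both from about 11 CPM in members. H2bc24 lies in a cluster of similar histone genes, among which counting can be uncertain. Gm17056 had 3.25 and overlaps Lsmem1 on the other strand by 835 bases. Cartpt, which encodes a neuropeptide, had 2.999 from 5.40 against 1.80 CPM, with suffix folds from 1.42 to 8.998.

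The lowest folds were led by genes known from macrophages and other immune cells. The 12 lowest folds included Ccl5 (0.12), Trem2 (0.22), Cx3cr1 (0.24), Mpeg1 (0.25), Lyz2 (0.27), Ctss (0.29), C1qb (0.29), C1qc (0.31), Laptm5 (0.32), Ms4a7 (0.33), Itgb5 (0.34) and Fyb (0.34). In the split by Npas4 UMIs described below, 2 of these were not lower. Ccl5 stood at 1.92 CPM without Npas4 and at 2.73, 6.94, 16.4 and 3.51 CPM with rising Npas4. Ms4a7 stood at 2.30 CPM without Npas4 and 2.51 CPM in the top class. The others were lower in the top class than without Npas4, but none fell at every step. All 6 macrophage markers were tested and 5 were called lower, against 0.711% of all genes. Their sum was 46.6 CPM in members (26.9 to 74.6 over suffixes) and 125 CPM in Npas4-free cells (84.4 to 170), and none was at 0. Of all 35 tested genes of other pituitary cell types, 6 were called lower and none higher.

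Some barcodes held UMIs of at least 3 marker genes of 1 other class (macrophages, endothelium, T or NK cells, stem cells or fibroblasts): 62 of the 2000 paired members (3.10%) and 79 of the 2000 Npas4-free cells (3.95%). Over all cells, with depth unmatched, the order was the other way, 236 of 4506 members (5.24%) and 87 of 2227 Npas4-free cells (3.91%). Top doublet scores were found in 5.59% of all members and 2.87% of all Npas4-free cells, and in 3.4% and 2.9% of the pairs. With all such barcodes left out and the pairs redrawn, the macrophage sum was 15.7 CPM in members and 15.2 CPM in the others. The filter used the same 6 macrophage markers, so it lowers this sum by design. Then 40 genes were lower (0.344%), 27 of them shared with the 85, and 345 were higher (2.97%). Of the 12 lowest folds, Lyz2 (1.15), C1qc (1.25), Cx3cr1 (1.40) and Fyb (1.11) turned above 1, and Mpeg1 stood at 1.00. Itgb5 (0.53), Ccl5 (0.56), Trem2 (0.62), Ms4a7 (0.73), Ctss (0.78), Laptm5 (0.87) and C1qb (0.93) stayed below 1. Other immune genes below 1 included Il1b (0.17, 11 against 63 UMIs), Fcer1g (0.34) and H2-Eb1 (0.50, called lower). Csf1r (4.33, 13 against 3 UMIs) and Aif1 (1.83) lay above 1. Nr4a1 (3.18), Arc (4.14) and Mest (1.56) kept their calls. The summed level of 5 markers of dividing cells was 8.13 against 15.6 CPM in all pairs, with overlapping suffixes (1.75 to 12.3 against 4.09 to 38.5), and 7.64 against 16.1 CPM without those barcodes. Mki67 was called lower in both, at folds of 0.44 and 0.38.

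Members also differed among themselves by how much Npas4 they held. To keep depth similar, Prl-defined cells of 6000 to 10000 UMIs were split into 1014 cells without Npas4, 477 with 1 UMI, 719 with 2 to 4, 598 with 5 to 9 and 735 with 10 or more. Median depth still went from 7561 to 8181 UMIs and mitochondrial share from 1.55% to 1.14%. Of the 40 immediate early genes, 37 were higher at every step, against 5.69% of 11733 genes, and of the heat shock genes 14 of 19. Arc stood at 84.1, 113, 202, 306 and 547 CPM over the 5 classes, Nr4a1 at 246, 446, 728, 981 and 1251 CPM, and Fos at 3150, 4735, 6907, 8444 and 10266 CPM. Nr4a1 and Fos were higher at every step within each of the 4 suffixes, and Arc within 3.

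Cells with a single Npas4 UMI stood between the ends. Their median ratio to Npas4-free cells was 1.43 over the immediate early genes and 1.03 over all genes, and the ratio of the top class was 3.35 and 1.06. 39 of 40 immediate early genes were above in the single-UMI class. Dnajb1 went from 453 to 2012 CPM, Mest from 366 to 751 CPM and 1700016P03Rik from 13.6 to 83.2 CPM. Prl went down at each step, from 275784 to 192818 CPM, and Drd2 had no such order (87.2, 83.9, 95.7, 104 and 92.6 CPM). Of 13 lactotroph regulators none was higher at every step and 1, Pou1f1, was lower at every step (551 to 488 CPM), against 1.25% of all genes.

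**Figure D5:**
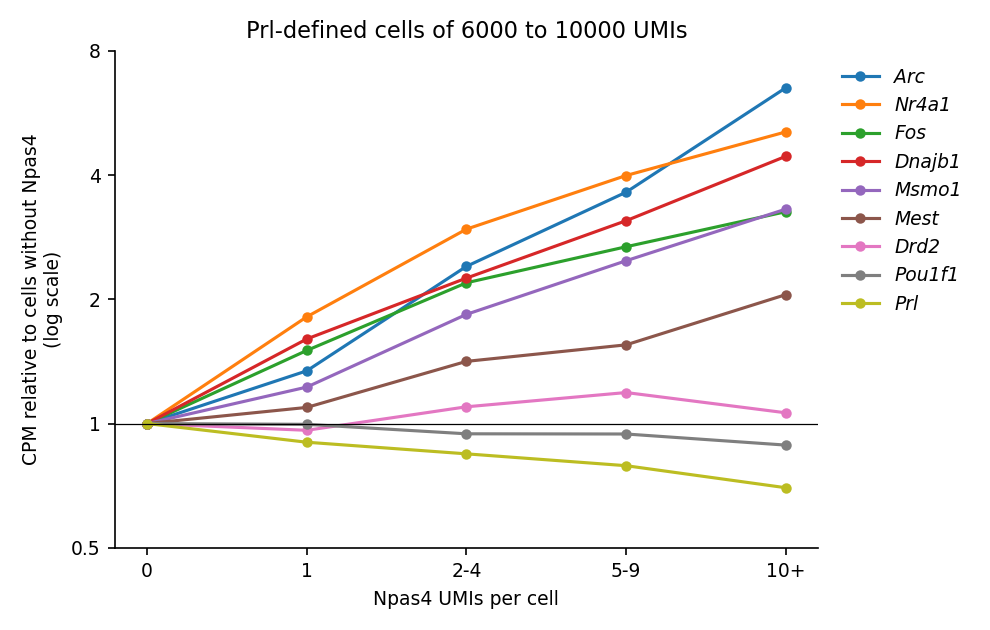
CPM relative to Npas4-free cells (vertical axis, log scale) of 9 genes in Prl-defined cells of 6000 to 10000 UMIs, by Npas4 UMIs per cell (horizontal axis). Arc reaches 6.51 times and Nr4a1 5.09 times the level without Npas4, while Drd2 stays near 1 and Prl reaches 0.70.

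The same split by Npas4 was made in the other 2 large hormone classes. In 5996 pairs of Gh-defined cells, 5 of 40 immediate early genes were called higher (median log2 fold 0.36), against 1.83% of all genes there, and 1 of 19 heat shock genes. In 897 pairs of Pomc-defined cells, 28 of 40 were called higher (0.78), against 2.11%, and 3 of 19 heat shock genes. Arc had a fold of 1.62 in Gh-defined and 2.12 in Pomc-defined cells, against 4.03 in lactotrophs. Egr4 had the opposite order in Gh-defined cells, with 3.93 there and 2.75 in Pomc-defined cells, against 3.07. Mest had 1.32 and 0.86, against 1.58. Npas4 levels in the paired carriers were 300.04 CPM in Gh-defined and 1034 CPM in Pomc-defined cells, against 907 CPM, and depths differed (medians 10810 and 7081 UMIs). Gh-defined carriers also held more Prl than their matched cells, 5637 against 2443 CPM, while Prl had a fold of 0.91 in Pomc-defined cells. Over all Gh-defined cells Npas4 stood at 128 CPM, against 116 CPM in macrophage marker cells. Genes called lower made up 0.564% in Gh-defined and 0.64% in Pomc-defined cells. The differences between classes, and the part of free RNA and Prl content in them, were not tested.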

How the data were processed

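Whole mouse pituitaries were dissociated and sequenced with the 10x Genomics 3' assay on a NovaSeq 6000, per the labels' protocols. Raw UMI counts for every gene in each barcode were deposited, made with Cell Ranger 8.0.1 per the file headers. The submitters' processing notes also list Seurat, with no role. For build, annotation and strand setting, the status is not given in the sources used here. In all, 55357 genes are listed. Where identifiers share a symbol, the one with most UMIs carries it and the others keep their identifier.

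Filters, hormone rules and pairs were computed in Python 3.11.15 (numpy 2.4.6, scipy 1.17.1, pandas 2.3.3, scanpy 1.11.5, matplotlib 3.10.9). CPM is 1000000 times summed counts over summed UMIs. Folds have exact conditional intervals, shares exact Clopper-Pearson intervals, at 95%, for counting error only. There is 1 pooled sample, hence no test and no p-value. The calling step was tested on simulated data in which all cells of a set had the same profile. Such data hold no mixed barcodes and no differences between cells, so calls that arise from these were not tested. Scrublet at its automatic threshold marked 2 and 0 barcodes in suffixes 1 and 4 and so had not worked there. Doublets were therefore kept, and the top 8% of scores per suffix were left out as an alternative.

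Genes are named by this rule: the 5 markers given for the cells, the 12 highest and 12 lowest folds among called genes, and up to 5 genes per list with the largest absolute log2 fold, at least 100 UMIs and 1 direction in all suffixes. Other genes named were added after their values were seen, and the rule's remaining genes are in counts only. The members, the 16 lists and the rule were chosen with earlier results of these data known. Alternatives changed the cell filter, Prl and Gh thresholds, doublets, depth, Npas4 threshold, matching, library size, gene filter and fold, or left out each suffix. 2 were added after seeing the data: leaving out barcodes with markers of another class, and drawing pairs in reverse file order. RefSeq windows matched 199 of the 302 genes called higher. GENCODE vM21 (GRCm38) served for gene positions, matched by identifier. Results for a few genes of the lists are not reported here.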

Additional observations from a re-analysis of the deposited data

How the results depend on the processing

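No value has a replicate check, because suffixes are not tied to libraries, and shares of cells with Npas4 are limited by depth. No paired analysis was possible because the replicate numbers of the HFD and ND libraries are not tied to barcodes. The cell pairs matched on depth lie within suffixes. The share of Prl-defined cells with Npas4 (66.9%) was 68.4% with at least 2000 UMIs and at most 5% mitochondrial UMIs, 65.5% with Prl at 15% or more and 68.5% with Gh under 2%. It was 33.5%, 46.7% and 64.5% after thinning to 1000, 2000 and 5000 UMIs, 53.3% with at least 2 Npas4 UMIs, and 65.1% to 70.0% with each suffix left out. Genes called higher (302) numbered 474 with cells weighted to the same UMI bins (236 shared with the 302) and 517 without matching (248 shared). They numbered 454 with a minimum of 30 UMIs per gene, 611 with no minimum and 81 at a fold of 2. With each suffix left out they ranged from 292 to 356, of which 230 to 266 were shared with the 302. Genes called lower (85) numbered 33 with Prl at 15% or more, of which 10 were shared, and 40 without barcodes holding markers of another class. They numbered 114 with cells weighted to the same UMI bins (36 shared with the 85) and 105 without matching (23 shared). With a minimum of 30 UMIs they numbered 271, with no minimum 605 and at a fold of 2 34. With each suffix left out they ranged from 65 to 70, of which 37 to 52 were shared with the 85. Genes tested numbered 14961 with a minimum of 30 UMIs and 26007 with no minimum, against 11947 in the main setting. Genes called lower grew by a larger factor than genes tested under both minimums. The cause of the changes in these counts was not tested. Immediate early genes called higher (36) numbered 29 at a fold of 2 and 35 to 37 under every other alternative run. For 95 named genes and 15 alternatives, 1226 of 1425 folds stayed within the counting interval of the main value, 195 moved outside it without reversing a call, and 4 reversed: C1qc 1.25, Cx3cr1 1.40, Fyb 1.11 and Lyz2 1.15, all without barcodes holding markers of another class.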
